A study of Mus musculus with 8 samples.

Results

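The neuromuscular junction is the synapse at which a motor axon drives a skeletal muscle fibre, and 10 of its postsynaptic genes were followed in mouse tongue carcinoma. They were taken by symbol from the authors' deposited table of 23235 genes: the 5 subunits of the muscle acetylcholine receptor (Chrna1, Chrnb1, Chrnd, Chrne and Chrng), the signalling and clustering genes Lrp4, Musk, Dok7 and Rapsn, and the acetylcholine-degrading enzyme Ache. All 10 had a row, and 9 of the 10 had the status OK, which marks the 15783 rows that the authors compared. Poly(A) RNA was sequenced from 3 squamous cell carcinomas of the tongue that arose under 4-NQO (4-nitroquinoline 1-oxide), a DNA-damaging carcinogen, and from 5 normal tongues of mice given no 4-NQO. Every sample came from a female C57BL/6 mouse, a standard inbred strain. The dose and length of exposure, the ages of the mice and the part of the tongue sampled are not given in the labels. Whether each sample is a separate animal is not stated, so p-values may measure only a spread that is partly technical.

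Acetylcholine released from the axon opens a five-part channel in the muscle membrane, built from alpha, beta and delta subunits with a gamma subunit in the fetus or an epsilon subunit in the adult. Agrin from the nerve binds LRP4, which activates the kinase MuSK; the adaptor DOK7 sustains that activation, and rapsyn, the product of Rapsn, packs receptors beneath the axon ending. Tongue is rich in striated muscle, and in muscle these genes are transcribed mainly by the few nuclei beneath each synapse.

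The deposited table holds 1 FPKM value (fragments scaled to transcript length and to mapped fragments) for each group and none for a sample, so whether single samples overlap between groups cannot be seen. Depth is unknown, and no interval from counts can be given. Each ± below is a standard error on the log2 scale, implied by the authors' test statistic. A gene is called where the deposited q-value is under 0.05.

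The promoters of the receptor genes are shown first because they carry the short sequences through which muscle-specific transcription is known to act: E-boxes (CANNTG), bound by myogenic factors such as MyoD and myogenin, and N-boxes (CCGGAA), bound by Ets-family factors and known for synaptic expression of the epsilon and delta subunits. RefSeq promoters on GRCm38.p6 matched 7 of the 10 genes, namely Chrna1, Chrnb1, Chrne, Chrng, Musk, Dok7 and Ache. Each line gives the 160 bases before the transcription start, 5′ to 3′ on the gene's strand, with the E-box form CAGCTG and the N-box in capitals. They lie at chr1:87205651-87205810 (plus strand) for Chrng, chr11:70619195-70619354 (minus) for Chrne, chr2:73580339-73580498 (minus) for Chrna1 and chr4:58285802-58285961 (plus) for Musk.
Chrng: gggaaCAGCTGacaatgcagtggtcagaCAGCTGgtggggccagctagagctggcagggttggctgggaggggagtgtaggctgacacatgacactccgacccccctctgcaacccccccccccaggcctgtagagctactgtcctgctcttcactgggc
Chrne: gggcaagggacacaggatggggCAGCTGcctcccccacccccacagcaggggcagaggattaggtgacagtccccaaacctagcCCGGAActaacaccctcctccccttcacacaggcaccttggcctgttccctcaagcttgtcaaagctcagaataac
Chrna1: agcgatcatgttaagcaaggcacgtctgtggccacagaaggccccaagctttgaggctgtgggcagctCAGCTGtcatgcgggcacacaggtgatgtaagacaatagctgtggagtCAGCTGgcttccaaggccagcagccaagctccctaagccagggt
Musk: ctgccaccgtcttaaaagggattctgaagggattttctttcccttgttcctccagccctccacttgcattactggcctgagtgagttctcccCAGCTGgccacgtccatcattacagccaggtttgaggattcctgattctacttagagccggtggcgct

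Matches were searched on both strands in the whole 300-base window, 250 bases before the start and 50 after it. CANNTG occurred in the promoters of all 7 genes and in 72.3% of 32851 mouse promoters, so it is common in promoters of any kind. CAGCTG, which is 1 form of CANNTG, occurred in 4 of the 7 genes and in 16.3% of mouse promoters. The fetal subunit Chrng carried CAGCTG at positions −155 and −132, counted from the start, and Chrna1 carried it at −92 and −44. The adult subunit Chrne had 1 CAGCTG, at −138, and Musk had 1, at −68. The single N-box among the 7 genes lay in Chrne, at −76; CCGGAA or its complement occurred in 14.9% of mouse promoters. A match describes the letters in the window and does not show that a factor binds there.

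**Figure D1:**
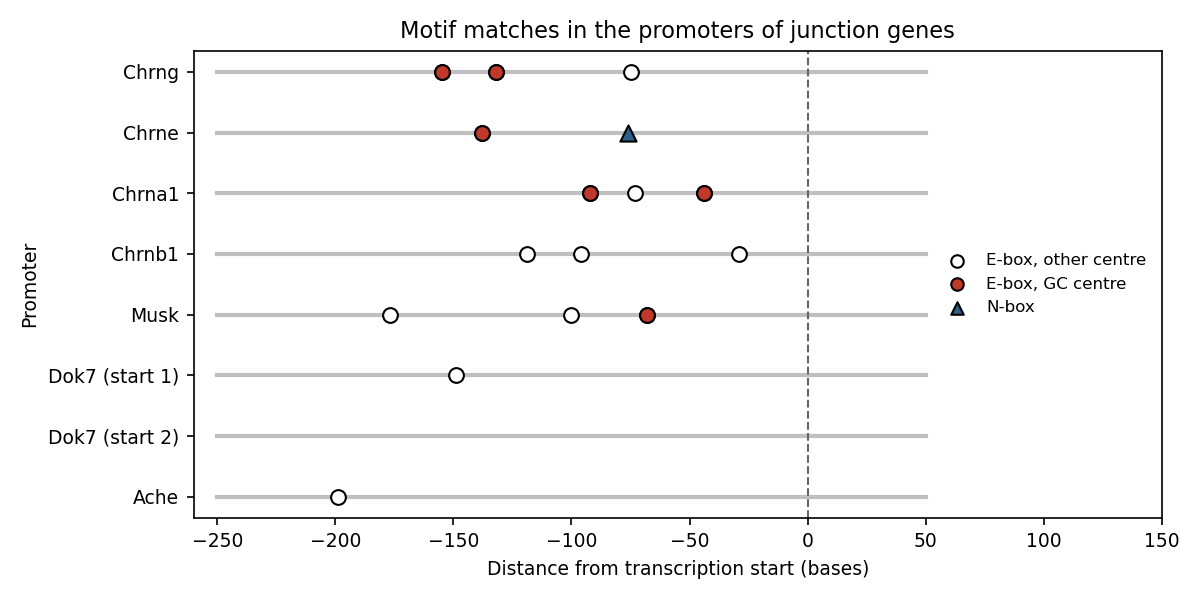
Positions of E-boxes and N-boxes in the promoters of 7 junction genes, as distance in bases from the transcription start (dashed line); grey lines span the window searched, and Dok7 has 2 annotated starts. Filled circles are E-boxes of the form with a GC centre (CAGCTG), which Chrng and Chrna1 hold in 2 copies each and Chrne and Musk in 1, and the triangle is the N-box of Chrne.

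The junction genes were lower in carcinoma as a set: 9 of the 9 tested members had a negative log2 fold change in the authors' deposited table, where 52.4% of rows with a finite fold had one. Of the 9, 4 fell past the threshold (44.4%) and none rose, beside 3.19% of all tested rows called lower. Those 4 were Ache, Chrna1, Rapsn and Dok7, an enzyme, a receptor subunit and a pair of clustering genes. Rows expressed in the same range as the tested members were called lower in 3.04% of 6680 cases. With Benjamini-Hochberg adjustment of the deposited p-values 5 members passed, Chrnd being added, beside 5.02% of tested rows, or 5.91% of those with at least 1 FPKM. At a deposited q under 0.10 the same 5 passed, beside 4.42% of rows, and at 0.01 only Ache, beside 1.65%. The members' median log2 fold change was −1.76, within a range from −1.91 to −0.89, against −0.04 over all 15686 tested rows with a finite fold. In bulk tissue, fewer muscle fibres and less of a transcript per fibre cannot be told apart.

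**Figure D2:**
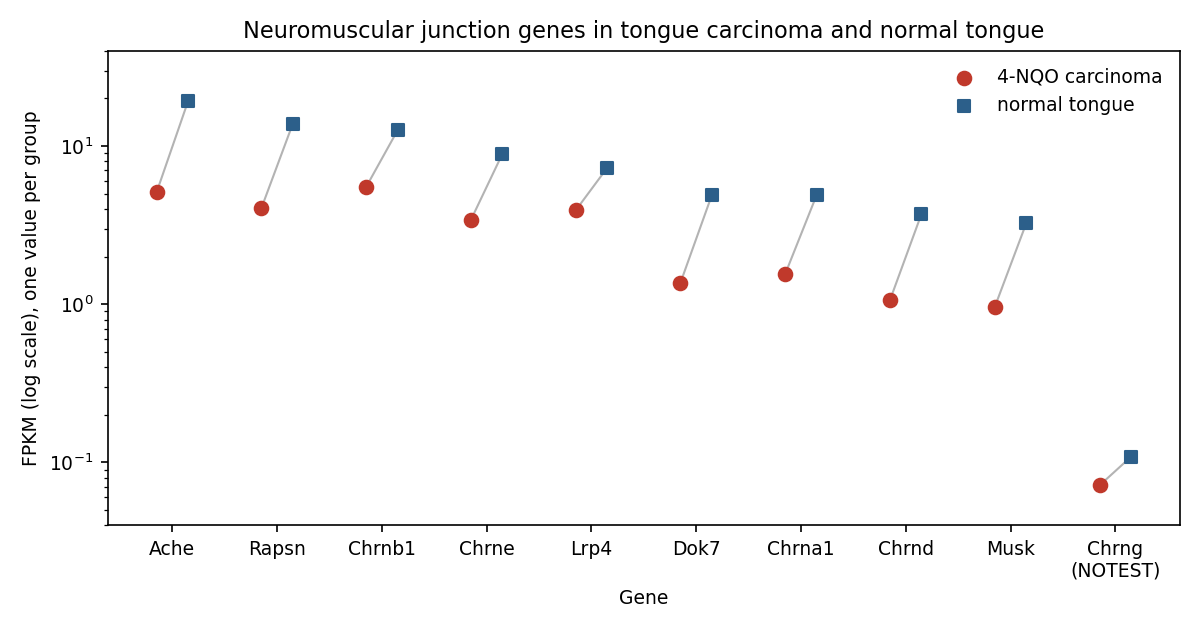
FPKM of the 10 junction genes on a log axis, ordered by level in normal tongue; circles are 4-NQO carcinoma and squares normal tongue, each the authors' single value per group, without error. Every carcinoma value lies below its normal value, and Chrng, whose row was not tested, lies near 0.1 FPKM in both groups.

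Among the receptor subunits, alpha1 was the one called. Chrna1, which carries most of the acetylcholine-binding site, was listed at 1.55 FPKM in carcinoma and 4.90 FPKM in normal tongue in the authors' deposited table. It fell by 1.66 ± 0.50 on the log2 scale (q = 0.0364), to 31.7% of its normal level. Its locus in that table is on chromosome 2, from 73401338 to 73418363, in a mouse build that the sources used here do not name and that is not GRCm38. Chrnd, the delta subunit that forms a binding site with alpha1, was listed at 1.06 FPKM in carcinoma and 3.71 FPKM in normal tongue. Its log2 fold change, −1.81 ± 0.58, was larger than that of Chrna1 and had a larger standard error, and it missed the threshold (q = 0.0678). It is the uncalled member nearest the threshold, and Dok7 is the called member nearest to it.

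The structural beta1 subunit and the adult epsilon subunit had smaller fold changes and were not called. Chrnb1 was listed at 5.50 FPKM in carcinoma and 12.5 FPKM in normal tongue in the deposited table, a log2 fold change of −1.19 ± 0.47 (q = 0.252; 95% interval −2.12 to −0.26). Chrne was listed at 3.41 FPKM in carcinoma and 8.90 FPKM in normal tongue, a log2 fold change of −1.38 ± 0.56 (q = 0.264; 95% interval −2.47 to −0.29). Both intervals lie below 0, so neither gene is shown to be unchanged; the interval covers 1 gene and is not adjusted for the number tested. The difference in log2 fold change between Chrna1 and Chrne, −0.27 ± 0.75, and that between Chrnd and Chrne, −0.42 ± 0.80, were each smaller than the combined standard error. Chrne shares its listed locus, chromosome 11 from 70428385 to 70432696, with the row 4930544D05Rik, at 0.546 FPKM in carcinoma and 1.54 FPKM in normal tongue. How the authors divided reads between these overlapping genes is not given in the sources used here, so the level of Chrne carries that uncertainty.

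The fetal subunit was listed near 0 in both groups, and the adult subunit stood far above it in both. Chrng was listed at 0.0716 FPKM in carcinoma and 0.109 FPKM in normal tongue in the authors' deposited table, in a row marked NOTEST, the status of rows too low to compare. No row of that status exceeded 0.244 FPKM in either group. Each of the 9 tested members stood above that level in both groups, the lowest value being 0.961 FPKM, that of Musk in carcinoma. Per length, Chrne was 47.6 times Chrng in carcinoma and 81.95 times Chrng in normal tongue. Put as a share of the 2 alternative subunits together, Chrng made up 2.06% in carcinoma and 1.21% in normal tongue. The log2 fold change of Chrng less that of Chrne was 0.78 ± 1.26, with the 2 genes taken as independent, so a shift between fetal and adult subunits in either direction was not detectable at these levels. The neighbouring genes Chrnd and Chrng lie 5740 bases apart on chromosome 1 in the table's coordinates, yet Chrnd was listed at 1.06 FPKM in carcinoma and 3.71 FPKM in normal tongue, far above Chrng.

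Beta1 made up the largest share of the receptor transcripts, per length, and gamma the smallest, in both groups. The 5 subunits summed to 11.6 FPKM in carcinoma and 30.2 FPKM in normal tongue. Of these sums Chrnb1 took 47.4% in carcinoma and 41.6% in normal tongue. Chrne took 29.4% in carcinoma and 29.5% in normal tongue. Chrna1, whose product enters each receptor as a pair, took only 13.4% in carcinoma and 16.2% in normal tongue, and Chrnd took 9.17% in carcinoma and 12.3% in normal tongue. These shares are per length and have no error, since the deposited table gives none for a level.

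The agrin receptor Lrp4 had the smallest fold change of the tested members, while the kinase and adaptor below it stood lower. Lrp4 was listed at 3.92 FPKM in carcinoma and 7.26 FPKM in normal tongue in the deposited table, a log2 fold change of −0.89 ± 0.50 (q = 0.723; 95% interval −1.86 to 0.08). Musk was listed at 0.961 FPKM in carcinoma and 3.25 FPKM in normal tongue, a log2 fold change of −1.76 ± 1.27 (q = 1.00; 95% interval −4.23 to 0.72). Its fold matched that of called members, but its standard error was the largest of the 9, beside a median of 0.54 over them. Musk is listed with 6 RefSeq transcripts, Lrp4 with 2 and every other member with 1. The median standard error was 0.65 over the 97 tested rows with 6 or more transcripts and 0.52 over the 12244 with 1, and the part of transcript number in the error of Musk was not tested. The log2 fold change of Lrp4 less that of Musk was 0.86 ± 1.36, within the combined standard error, so the 2 receptor components were not shown to differ.

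Dok7, the gene of the MuSK adaptor, and Rapsn, that of the receptor-packing rapsyn, both fell. Dok7 was listed at 1.36 FPKM in carcinoma and 4.90 FPKM in normal tongue in the authors' deposited table (log2 fold change −1.84 ± 0.56, q = 0.0394). Rapsn was listed at 4.03 FPKM in carcinoma and 13.8 FPKM in normal tongue (−1.77 ± 0.54, q = 0.0387). Rapsyn binds receptors directly, and its transcript stood at 2.60 times Chrna1 in carcinoma and 2.81 times Chrna1 in normal tongue, per length.

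Ache, which ends each signal by splitting acetylcholine in the synaptic cleft, was the most abundant member in normal tongue. It was listed at 5.08 FPKM in carcinoma and 19.1 FPKM in normal tongue in the authors' deposited table, 26.6% of normal (−1.91 ± 0.47, q = 0.00341). Its log2 fold change was the lowest of the 9 tested members. Those of Dok7 (−1.84 ± 0.56) and Chrnd (−1.81 ± 0.58) differed from it by less than a standard error. Among all tested rows with a finite fold, 2.81% had a log2 fold change as low as that of Ache. In the order of levels, Ache stood second in carcinoma, after Chrnb1, and first in normal tongue, ahead of Rapsn and Chrnb1. The table gives no spread for a level, so neighbours in these orders cannot be separated. Ache is also made outside muscle, in red blood cells and neurons. All 4 tested red blood cell genes with a finite fold had negative ones, beside 52.4% of all tested rows. The anion exchanger Slc4a1 fell by 4.78 ± 0.84 on the log2 scale (q = 2.36e-06). It was 1 call in 5 tested genes (20.0%, beside 3.19% of all tested rows). Its carcinoma value, 0.0622 FPKM, lay below 0.244 FPKM, the highest of any row marked NOTEST. The tested list summed to 145 FPKM in carcinoma and 391 FPKM in normal tongue. The part of red blood cells in the change of Ache was not tested.

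The decline of the junction genes was set beside that of muscle fibre genes in the same table. The 30 tested skeletal muscle fibre genes, contractile and calcium-handling genes expressed along the whole fibre, had a median log2 fold change of −1.59, with the 25th and 75th percentiles at −1.69 and −1.33. Of them 29 had negative fold changes, as did 52.4% of all tested rows with a finite fold. Past the threshold 4 fell, Myh2, Tnnt1, Myoz2 and Myot (13.3%, beside 3.19% of all tested rows). The abundant Tnnc2, Tnni2, Mylpf and Tcap were not called. Their log2 fold changes ran from −1.65 to −1.18, with standard errors from 1.04 to 1.57. The median standard error was 0.75 over the tested muscle genes and 0.54 over the tested junction genes, so their shares called cannot be compared directly. Relative to the muscle median log2 fold change, 8 of the 9 tested junction genes lay within 1 of their own standard errors. Chrna1 differed from it by −0.07, Rapsn by −0.18 and Ache by −0.32, all below the muscle median. Chrnb1 stood 0.40 above it, Chrne 0.21 above it and Lrp4 0.70 above it, which for Lrp4 is 1.41 standard errors. The summed level of the tested muscle genes was 10499 FPKM in carcinoma and 27761 FPKM in normal tongue. A further 6, Acta1, Atp2a1, Ckm, Myh1, Myh4 and Tnnt3, are listed at 0 in normal tongue by a failed estimate and were left out. The part of muscle content in the junction genes' change was not tested, since no file gives the muscle content of a sample.

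**Figure D3:**
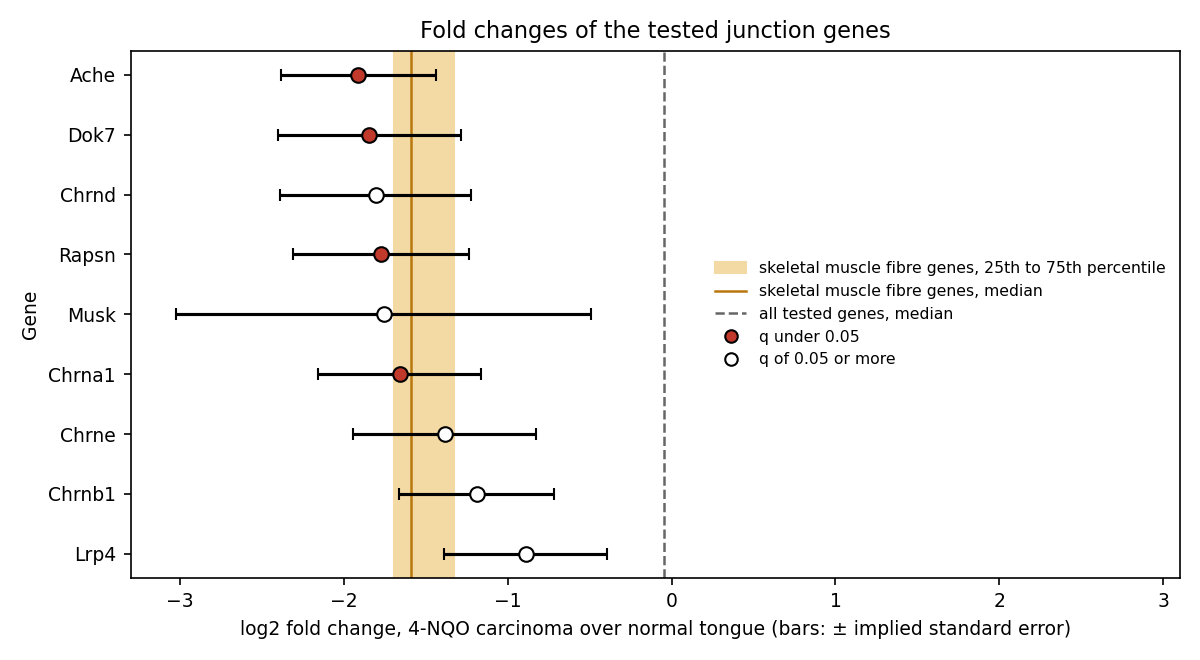
log2 fold change of the 9 tested junction genes, 4-NQO carcinoma over normal tongue, with bars of 1 implied standard error; the shaded band and solid line mark 30 skeletal muscle fibre genes and the dashed line all tested genes. The bars of 8 genes reach the muscle median of −1.59, and that of Lrp4 stops short of it.

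Keratinocyte genes were called higher beside the lowered junction genes, and nerve genes were called in both directions. Of 12 tested keratinocyte genes 5 rose, Cdh3, Lama3, Lamb3 and Dsg3 among them, none fell (41.7% called higher, beside 3.07% of all tested rows) and 1, Krt15, had a negative fold change (−1.53 ± 0.66, q = 0.350). They summed to 5176 FPKM in carcinoma and 1952 FPKM in normal tongue, and Krt14 is listed at 0 in carcinoma by a failed estimate. LRP4 also acts in epithelium and other tissues, and the part of epithelial cells in the level of Lrp4 was not tested. Of 12 tested Schwann cell and nerve genes, the glial sheath of motor axons included, 10 had negative fold changes, beside 52.4% of tested rows. The list median was −1.34. Of these 12, 1 fell and 1 rose (16.7% called), beside 3.19% of all tested rows called lower and 3.07% called higher. The abundant myelin genes Pmp22 and Mbp were not called. The neurofilament gene Nefl rose (4.39 ± 1.13, q = 0.00615), to 1.25 FPKM in carcinoma against 0.0598 FPKM in normal tongue. That normal value lay below 0.244 FPKM, the highest of any row marked NOTEST.

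Genes listed for agrin-MuSK and neuregulin signalling were called in both directions. Of the 22 tested genes of this list, 2 rose and 1 fell in the deposited table (13.6% called). Of all tested rows, 3.07% were called higher and 3.19% lower, and the list median was 0.09. The risers were Nrg1, a neuregulin ligand of ErbB receptors, at 5.12 FPKM in carcinoma and 0.854 FPKM in normal tongue (2.58 ± 0.68, q = 0.00823), and Etv4, an Ets-family transcription factor (2.46 ± 0.56, q = 0.000897). The neuregulin receptor gene Erbb4 fell to 0.0575 FPKM in carcinoma, against 0.440 FPKM in normal tongue (−2.94 ± 0.88, q = 0.0372). Its carcinoma value lay below 0.244 FPKM, the highest of any row marked NOTEST. Agrn, the agrin gene itself, named here for its role, was listed at 15.9 FPKM in carcinoma and 11.5 FPKM in normal tongue and was not called (0.47 ± 0.52, q = 1.00). Nor were the most abundant members of the list, Prkar1a, Cttn, Dnaja3 and Dvl1. Most genes of this list are expressed in many cell types.

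In the list of synaptic scaffold and basal lamina genes, a minority was called, all lower. Of 24 tested, 5 fell (20.8%, beside 3.19% of all tested rows) and none rose in the deposited table, with a list median of −0.76. Fold changes were negative for 19 of the 24 and positive for 5, where 52.4% of all tested rows had a negative one. Ank2, an ankyrin of the membrane skeleton, fell by 2.098 ± 0.46 on the log2 scale (q = 0.000567). Dmd, which encodes dystrophin of the fibre membrane, fell by 1.84 ± 0.44 (q = 0.0019), and Scn4a, the sodium channel that starts the muscle action potential, had a log2 fold change of −1.76 ± 0.44 (q = 0.00344). The laminin chains Lama2 and Lamb2 were the other calls. Plec, Dag1 and Dtna, among the most abundant of the remainder, were not called. Colq, the collagen tail that anchors acetylcholinesterase, named here for its role, was listed at 1.13 FPKM in carcinoma and 3.45 FPKM in normal tongue (−1.60 ± 0.61, q = 0.199). Per length Ache stood at 4.48 times Colq in carcinoma and 5.54 times Colq in normal tongue.

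Of 13 tested genes known to respond to loss of the nerve in mouse muscle, 11 were listed lower in carcinoma and 2 higher. Of all tested rows with a finite fold, 52.4% were listed lower. The list was not split by the direction in which loss of the nerve moves a gene, so a fall has no single reading. Of the 13, the deposited table called 4 lower (30.8%, beside 3.19% of all tested rows) and none higher. Myh8, the perinatal myosin, fell to 4.85 FPKM in carcinoma, against 204.9 FPKM in normal tongue (−5.40 ± 0.53), and Myh3, the embryonic myosin, to 0.232 FPKM in carcinoma, against 9.24 FPKM in normal tongue (−5.32 ± 0.58), each with q listed as 0. Myh8 differed from the muscle median by −3.81 on the log2 scale, while the tested junction genes differed by −0.32 to 0.70, and myosin genes are close copies whose reads may be shared. Trim63, a muscle ubiquitin ligase, fell by 1.59 ± 0.46 (q = 0.0275), and Hdac9, a repressor of the histone deacetylase family, had a log2 fold change of −1.92 ± 0.57 (q = 0.0329). Myog, the E-box factor that drives receptor genes after denervation, named here for its role, was listed at 2.44 FPKM in carcinoma and 8.81 FPKM in normal tongue (−1.85 ± 0.59, q = 0.0623). Sln, Cdkn1a, Fbxo32 and Gadd45a were not called. The 2 genes listed higher were Runx1 (1.72 ± 0.55, q = 0.0606) and Cdkn1a (0.05 ± 0.54). Among 8 tested satellite cell and myogenic genes, 1 fell (12.5%, beside 3.19% of all tested rows). It was Myf6, a myogenic factor of mature fibres (−2.04 ± 0.46, q = 0.000776). Negative fold changes were found for 7 of the 8, beside 52.4% of all tested rows with a finite fold. Myod1, Cdh15, Sdc4 and Vcam1 were not called.

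No tested nicotinic subunit outside the muscle receptor and no tested muscarinic receptor was called. The list for acetylcholine supply held 1 call, a mitochondrial enzyme. Of 11 nicotinic subunits outside the muscle receptor, 2 were tested and neither was called. Chrna10, a subunit known from inner-ear hair cells, was listed at 1.61 FPKM in carcinoma and 5.25 FPKM in normal tongue in the deposited table (−1.70 ± 0.59, q = 0.116), and Chrna2 at 0.216 FPKM in carcinoma and 0.430 FPKM in normal tongue. Chrna6 and Chrnb3 are listed at 0 in both groups. Of 5 muscarinic receptors 2 were tested, Chrm1 and Chrm3, and neither was called. Chat, the enzyme that makes acetylcholine, was listed at 0.0172 FPKM in carcinoma and 0.0434 FPKM in normal tongue in an untested row; motor neurons keep this transcript in cell bodies outside the tongue. Crat, the carnitine acetyltransferase of mitochondria, fell by 1.77 ± 0.54 (q = 0.0439). It was the single call among 5 tested genes listed for acetylcholine supply (20.0%, beside 3.19% of all tested rows called lower). That list also held Slc44a1, Slc44a2 and Slc22a3.

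**Figure D4:**
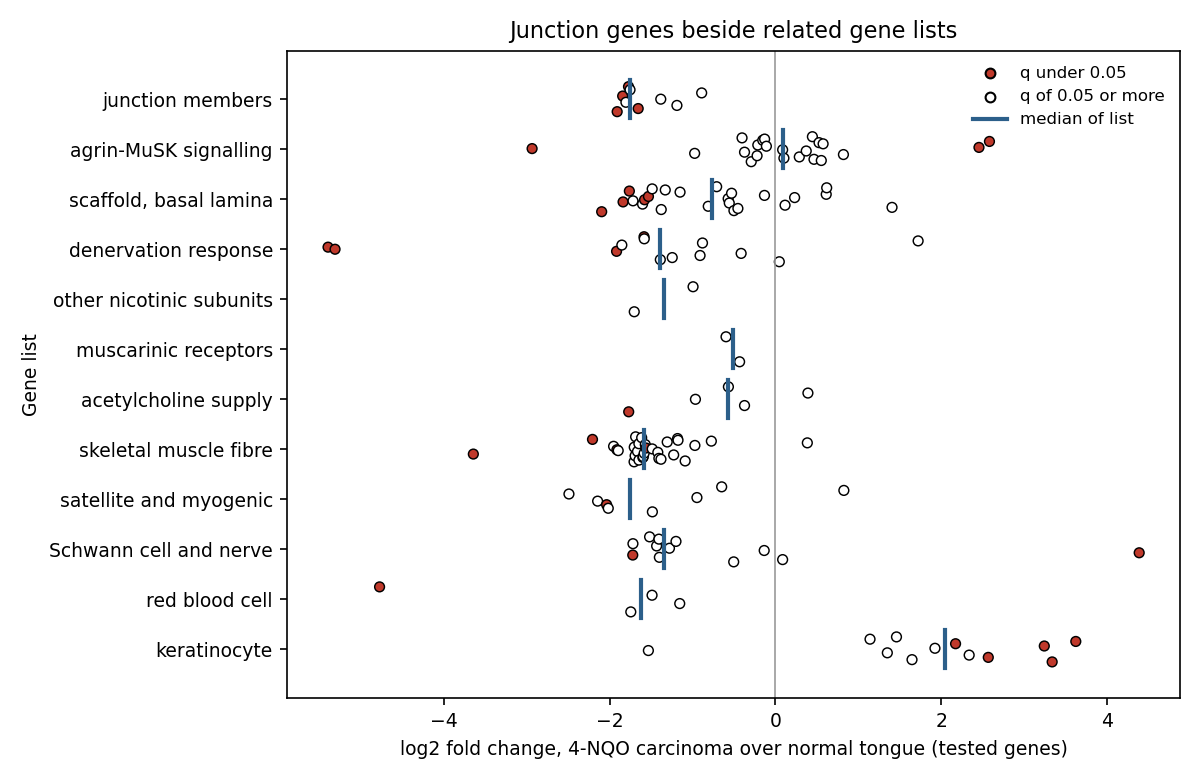
log2 fold change of every tested gene with a finite fold in the junction list and 11 related lists, 4-NQO carcinoma over normal tongue; filled points have q under 0.05 and bars mark list medians. The junction genes lie between −1.91 and −0.89, with a median of −1.76. Medians are −1.75 for satellite and myogenic genes, −1.62 for red blood cell, −1.59 for skeletal muscle fibre and −1.34 for Schwann cell and nerve genes. The keratinocyte list has a median of 2.05.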

How the data were processed

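A deposited table of a single comparison was analysed. Its FPKM values, 1 per group, were made by the authors. Per the file headers it also gives the log2 fold change (4-NQO over Control), a test score (the statistic), the p-value, the q-value and the authors' call. Per the submitters' processing notes, GSNAP 2011.11.17, edgeR and the human build GRCh37 were named with no role. Neither the program behind the table nor its mouse build is given in the sources used here. No new test was made. Calls are rows of status OK with deposited q-value under 0.05, which equalled the authors' call in every row. The deposited fold equals the log2 ratio of the FPKM values, and the standard error is the fold divided by the statistic, whose sign is opposite to that of the fold; the 95% intervals assume a normal distribution. Coordinates were shifted to count from 1. Promoters are RefSeq's (GRCm38.p6). Python 3.11.15, pandas 2.3.3 and scipy 1.17.1 were used. Members and gene lists were chosen with earlier results of these data known; beyond the members, text names each list's called genes and up to 4 of the most abundant tested genes. Some genes that this rule selects are not reported here. The alternatives tried were other q thresholds, Benjamini-Hochberg adjustment, an FPKM minimum, pseudocounts and re-centring.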

Additional observations from a re-analysis of the deposited data

How the results depend on the processing

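Of the 9 tested members, 4 were called lower at the deposited q under 0.05. At q under 0.01 only Ache passed, 1 member, beside 1.65% of tested rows called lower. At q under 0.10, and with Benjamini-Hochberg adjustment of the deposited p-values over all tested rows or over rows with at least 1 FPKM, 5 passed, Chrnd being added, beside 4.42%, 5.02% and 5.91% of rows. The members' median log2 fold change of −1.76 became −1.19 with a pseudocount of 1 FPKM, which shrinks the folds of low genes by construction. It became −0.17 when re-centred on skeletal muscle fibre genes, and −0.18 on the 13 of these under 100 FPKM in normal tongue, a reference added after the data were seen. With those 2 references 4 members changed sign: Chrnb1 to 0.40 and 0.38, Chrne to 0.21 and 0.19, Lrp4 to 0.70 and 0.68 and the untested Chrng to 0.99 and 0.97. With a pseudocount of 0.1 FPKM, or re-centred on all tested rows, all 10 members kept their sign and moved by less than their standard error. The Chrng less Chrne difference, 0.78 ± 1.26 as deposited, was 1.08 with a pseudocount of 0.1 FPKM and 1.12 with 1 FPKM. Chrng lay near 0.1 FPKM in both groups, so these pseudocounts shrink its fold by construction. No replicate could be left out, since the table holds 1 value per group. No paired analysis was possible because the table holds no value per sample and the sample numbers of the groups do not overlap.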
